A study of Neurospora crassa with 16 samples.

Results

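The transcripts described here are those of 7 genes of the filamentous fungus Neurospora crassa that take up the work of nitrogen assimilation or control it. They comprise 3 regulators, nit-2 (NCU09068), nit-4 (NCU08294) and nmr (NCU04158), the 2 enzymes of nitrate reduction, nit-3 (NCU05298) and nit-6 (NCU04720), and 2 enzymes that build glutamate from ammonium, am (NCU01195) and en(am)-2 (NCU01744). They were chosen by locus and not by their levels, out of 9730 genes in the table. Earlier results of these data were known when the 7 were chosen. All 7 passed the filter on low counts, which left 8983 genes for testing. The product names in the table were nitrate reductase for nit-3, nitrite reductase for nit-6 and glutamate synthase for en(am)-2, whereas am carried the broad family name Glu/Leu/Phe/Val dehydrogenase.

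RNA was taken from mycelia of a wild-type strain (WT) and of a strain labelled △stk-12, called the mutant here, for the gene of a serine/threonine protein kinase. Each strain was started from conidia, the asexual spores, in Vogel's salts with Avicel, a crystalline cellulose, as carbon source, under constant light. Both strains were harvested at 12h and at 1d, 3d and 5d, which gave 8 groups (WT and mutant at each of the 4 times) of 2 libraries. No label says whether the 2 libraries of a group came from separate cultures, so the p-values below speak only to the spread between libraries, which may be technical.

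In Neurospora, as in other fungi, ammonium and glutamine are preferred nitrogen sources, and genes for other sources are repressed while these are plentiful. NIT-2, a GATA-type zinc finger activator, switches such genes on when preferred nitrogen runs short, and the NMR protein binds NIT-2 and holds it inactive. NIT-4, a zinc cluster activator specific to the nitrate pathway, responds to nitrate. Nitrate enters through the transporter NIT-10, is reduced to nitrite by nitrate reductase (nit-3) and then to ammonium by nitrite reductase (nit-6). Ammonium is joined to carbon skeletons by the NADP-dependent glutamate dehydrogenase (am) or by glutamine synthetase followed by glutamate synthase (en(am)-2). Vogel's salts supply ammonium together with nitrate.

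Reads in genes ranged from 14946389 to 26466759 per library. stk-12 was lower in the mutant at every time but not absent, with 16.5, 9.63, 35.8 and 47.2 CPM (read counts relative to library size scaled by TMM, as throughout; means in order of time) against 43.1, 39.3, 102 and 109 CPM in WT. No mutant library held a read of the A mating type genes (matA-1, -2 and -3: 0 reads in 8 libraries). The pheromone genes also split by strain at every time. At 12h, ccg-4, of the A type, held 2318 CPM in WT against 0.0436 CPM in the mutant. For mfa-1, of the a type, the means were 2.13 CPM in WT and 9722 CPM in the mutant. An effect of stk-12 therefore cannot be told apart from other differences between strains of unlike mating type transcripts. Markers of conidia also moved with the groups. The 5 conidial genes eas, con-6, con-8, con-10 and con-13, none of which was at 0 in any library, summed to 1993 and 2005 CPM in WT at 3d against 423 and 438 CPM in the mutant. At 5d they summed to 1372 and 862 CPM in WT against 1681 and 1618 CPM in the mutant. That sum at 5d was carried by con-8 (mean 450 CPM in WT, 1489 CPM in the mutant), while the other 4 markers were lower in the mutant: eas at 39.5 against 2.73 CPM, con-6 at 14.1 against 2.31, con-10 at 588 against 151 and con-13 at 26 against 4.33. The 5 genes summed at 12h and 1d to between 95.9 and 460 CPM in all libraries. Their part in the results below was not tested. In bulk RNA, fewer cells of a type and less RNA per cell cannot be told apart.

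Per unit length, the 7 genes ranged at 12h from the weakly transcribed nit-4 to the abundant am. Regulators and enzymes were not divided by level, as nit-2 lay above nit-3. On the RPKM scale, which divides reads by gene length and library total, am led at 12h with 1653 ± 113 in WT (SD, n = 2 libraries, as for every mean ± SD below), rank 43 of 9730 genes. It was followed by nit-6 at 151 ± 0.305 RPKM, en(am)-2 at 108 ± 0.933, nit-2 at 35.4 ± 0.162, nit-3 at 20.8 ± 2.21, nmr at 17.6 ± 0.549 and nit-4 at 2.87 ± 0.256. nit-4 was the lowest of the 7 in all 8 groups, with group means from 1.65 to 7.20 RPKM. By 5d the order had changed: in the mutant, nit-6 led with 132 ± 1.58 RPKM, and am stood at 10.8 ± 1.05 RPKM, rank 5696, beside nit-3 at 10.7 ± 0.504 RPKM.

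**Figure D1:**
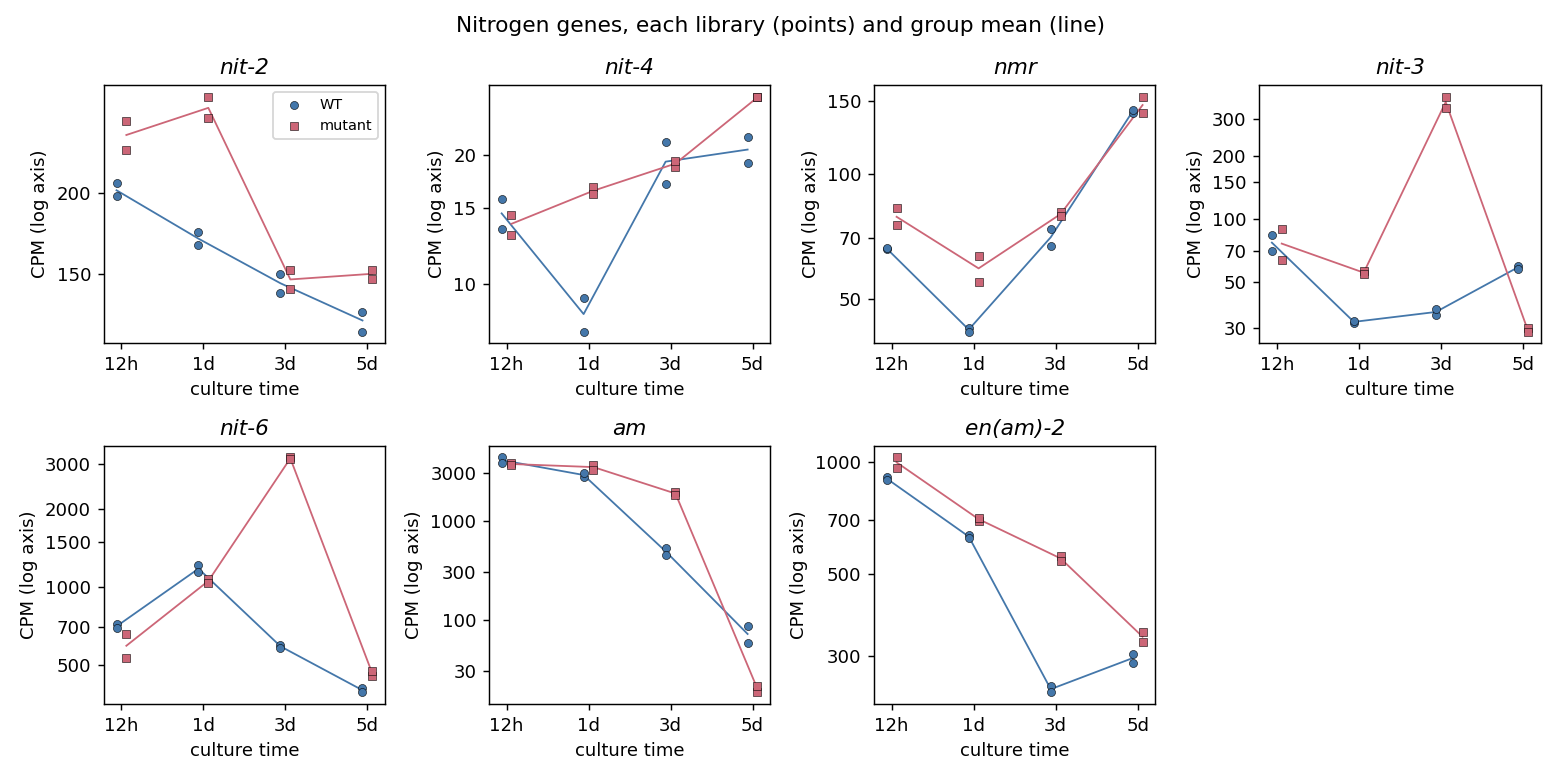
CPM (log axis, a separate scale per gene) of the 7 genes at 12h, 1d, 3d and 5d, with points for the 2 libraries of each group and lines joining group means, WT as blue circles and the mutant as red squares. The mutant alone had a peak at 3d for nit-3 (361 CPM) and nit-6 (3146 CPM), and am fell to 71.4 CPM in WT and 19.9 CPM in the mutant at 5d.

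The genotypes were compared at each time. Differences are log2 fold changes ± SE from edgeR's quasi-likelihood test over all 16 libraries, with Benjamini-Hochberg adjustment over the 8983 genes. A gene passed at an adjusted p under 0.05. At 12h, 2 of the 7 genes, both regulators, were higher in the mutant and 0 were lower, while 13% of all genes tested passed, 6.53% higher and 6.51% lower. At 1d, 4 were higher (the 3 regulators and nit-3) and 0 lower, against a background of 37.1% (19.1% higher, 18.0% lower). At 3d, 5 were higher (both nitrate enzymes, both glutamate enzymes and nmr) and 0 lower, against 59.5% (29.4% higher, 30.0% lower). At 5d, 4 were higher (nit-2, nit-4, nit-6 and en(am)-2) and 2 lower (nit-3 and am), against 61.6% (30.6% higher, 30.9% lower). The median log2 fold change of the 7 was -0.01, 0.49, 1.17 and 0.19 at the 4 times, beside -0.03, 0.02, -0.02 and -0.01 over all genes tested. The genotype difference itself varied over the 4 times for all 7 genes (F test on 3 degrees of freedom), as it did for 77.5% of all genes. Libraries of the genotypes stood apart, with no overlap, for 56.7, 68.8, 82.2 and 80.7% of all genes tested at 12h, 1d, 3d and 5d, so standing apart alone sets no gene off from the rest.

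**Figure D2:**
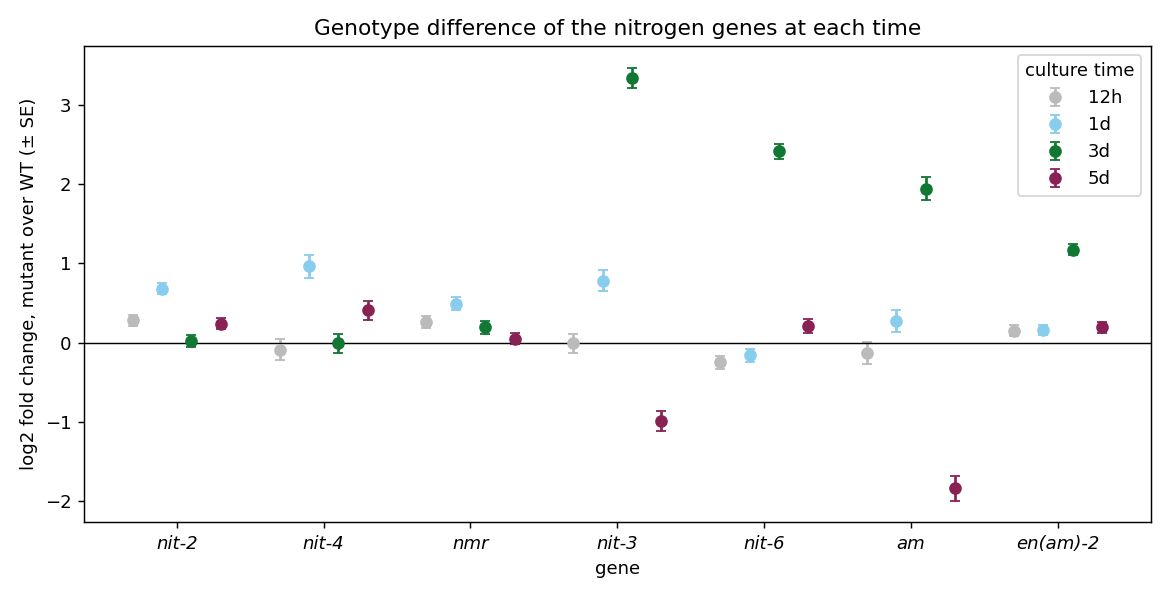
Log2 fold change of the mutant over WT (vertical axis, points; bars are ± SE) for each of the 7 genes at the 4 times. At 1d the points above 0.4 are the regulators and nit-3, at 3d the enzymes stand highest (nit-3 3.34, nit-6 2.41, am 1.94, en(am)-2 1.17), and at 5d nit-3 (-0.99) and am (-1.84) lie below 0.

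nit-2, the general nitrogen activator, was higher in the mutant at 12h, 1d and 5d, most at 1d. In CPM, its lowest means in both strains were those at 3d and 5d. WT libraries held 207 and 198 CPM at 12h, 166 and 174 at 1d, 140 and 150 at 3d, and 131 and 122 at 5d. Mutant libraries held 259 and 233 CPM at 12h, 261 and 282 at 1d, 142 and 152 at 3d, and 152 and 147 at 5d. The libraries of the genotypes stood apart at 12h, 1d and 5d and overlapped at 3d. At 1d the log2 fold change was 0.68 ± 0.0719 (adjusted p = 4.72e-06), a 1d difference that stood under every alternative. At 12h it was 0.28 ± 0.0706 (adjusted p = 0.0145), with adjusted p of 0.0631 and 0.0979 when WT 12h replicate 1 or 2 was left out and 0.126 when the first 12h mutant library was. At 5d it was 0.24 ± 0.0718 (adjusted p = 0.00843), with 0.0869 without WT 5d replicate 2, 0.0526 without mutant 5d replicate 1 and 0.101 with library totals alone as scaling. At 3d it was 0.02 ± 0.0715 (adjusted p = 0.833), and -0.21 (adjusted p = 0.0165) with library totals alone.

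The nit-2 order from lowest to highest was WT 5d, WT 3d, mutant 3d, mutant 5d, WT 1d, WT 12h, mutant 12h and mutant 1d, and the highest mean was 2.15 times the lowest. Within it, mutant 3d overlapped both of its neighbours. The largest step in nit-2 was in the mutant from 1d to 3d, -0.89 ± 0.0716 (adjusted p = 1.11e-08). The WT steps were smaller: -0.25 ± 0.0717 to 1d, -0.23 ± 0.072 to 3d and -0.20 ± 0.0719 to 5d. Each of these passed (adjusted p = 0.00705, 0.00838 and 0.0291) but none firmly. The first had an adjusted p of 0.054 without WT 12h replicate 1 and 0.0644 without WT 1d replicate 1. The second turned to 0.26 (adjusted p = 0.00297) with library totals alone, and had 0.0677 without WT 1d replicate 2 and 0.0773 without WT 3d replicate 1. The third had 0.178 without WT 3d replicate 2, 0.188 without WT 5d replicate 2, 0.0953 with library totals alone and 0.0527 with DESeq2.

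nit-4, the nitrate-specific activator, fell in WT at 1d, where it stood below the mutant, and returned by 3d. WT libraries held 15.8 and 13.4 CPM at 12h, 9.26 and 7.71 at 1d, 17.1 and 21.5 at 3d, and 19.2 and 22 at 5d. Mutant libraries held 14.5 and 13 CPM at 12h, 16.8 and 16.2 at 1d, 18.8 and 19.4 at 3d, and 27.3 and 27.4 at 5d. The genotypes stood apart at 1d and 5d and overlapped at 12h and 3d. The log2 fold change was 0.96 ± 0.149 at 1d (adjusted p = 0.000167) and 0.41 ± 0.12 at 5d (adjusted p = 0.00794, and 0.0785 without WT 5d replicate 1). At 12h it was -0.09 ± 0.129 (adjusted p = 0.71) and at 3d -0.01 ± 0.123 (0.954). WT fell by 0.79 ± 0.148 on the log2 scale from 12h to 1d (adjusted p = 0.000273) and rose by 1.18 ± 0.144 from 1d to 3d (1.05e-06). The matching mutant steps, 0.26 ± 0.131 (0.129) and 0.22 ± 0.128 (0.143), did not pass, and 3d to 5d in the mutant was a rise of 0.52 ± 0.12 (0.00134). From lowest to highest the order was WT 1d, mutant 12h, WT 12h, mutant 1d, mutant 3d, WT 3d, WT 5d and mutant 5d, over a 3.22-fold range. Both 12h groups overlapped, as did mutant 3d with WT 3d and WT 3d with WT 5d.

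nmr, the negative regulator, was lowest at 1d and highest at 5d in both strains. WT libraries held 65.8 and 66.4 CPM at 12h, 42.5 and 41.6 at 1d, 67.2 and 73.7 at 3d, and 141 and 143 at 5d. Mutant libraries held 75.2 and 82.7 CPM at 12h, 63.5 and 55 at 1d, 80.9 and 79.4 at 3d, and 154 and 141 at 5d. The mutant lay above WT at 12h, 1d and 3d, and the genotypes overlapped at 5d. The clearest genotype difference was at 1d, 0.49 ± 0.084 (adjusted p = 0.000344). At 5d it was 0.05 ± 0.0744 (0.555). The 12h value of 0.26 ± 0.0772 (0.0387) had an adjusted p of 0.189 without WT 12h replicate 1, 0.117 without WT 12h replicate 2 and 0.275 when the second 12h mutant library was left out. It also missed the threshold without WT 1d replicate 1 or 2 (0.0543 for each) and without mutant 3d replicate 2 (0.0534).

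The nmr difference at 3d, 0.19 ± 0.0771 (adjusted p = 0.0474), kept its call in 12 of 22 alternatives, the fewest of the calls on the 7 genes: it was -0.04 (0.692) with library totals alone, and the adjusted p was 0.299 without WT 3d replicate 1, where the log2 fold change was 0.12. The adjusted p was 0.0686 and 0.102 without mutant 3d replicate 1 and 2, 0.0578 without either WT 12h library, 0.0593 without either WT 1d library, 0.0502 without the filter on low counts and 0.0561 with a replicate block. In time, nmr fell from 12h to 1d by 0.65 ± 0.0827 in WT (6.03e-06) and by 0.42 ± 0.0787 in the mutant (0.000524). From 1d to 3d it rose by 0.74 ± 0.0823 in WT (3.4e-07) and by 0.44 ± 0.0789 in the mutant (0.000106). From 3d to 5d it rose by 1.01 ± 0.0765 in WT (1.79e-08) and by 0.88 ± 0.0759 in the mutant (3.98e-08). The order was WT 1d, mutant 1d, WT 12h, WT 3d, mutant 12h, mutant 3d, WT 5d and mutant 5d, a 3.5-fold range, in which mutant 12h overlapped mutant 3d and both 5d groups overlapped.

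nit-3, nitrate reductase, had the largest genotype difference of the 7, at 3d. WT libraries held 83.8 and 69.7 CPM at 12h, 31.8 and 32.3 at 1d, 34.6 and 37 at 3d, and 59.2 and 57.7 at 5d. Mutant libraries held 88.9 and 63.1 CPM at 12h, 56 and 54.4 at 1d, 383 and 339 at 3d, and 30 and 28.8 at 5d. The mutant at 3d thus lay far above the other 7 groups, the mutant at 1d lay above WT, the mutant at 5d lay below WT, and the 12h libraries overlapped. The 3d log2 fold change was 3.34 ± 0.128 (adjusted p = 1.4e-12), rank 199 of the 8983 genes by absolute size. It was 0.78 ± 0.135 at 1d (0.000373), -0.99 ± 0.128 at 5d (5.69e-06) and -0.01 ± 0.12 at 12h (0.964).

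Over time, WT nit-3 fell by 1.26 ± 0.132 on the log2 scale from 12h to 1d (7.87e-07) and rose by 0.71 ± 0.126 from 3d to 5d (0.000196). Its change from 1d to 3d was 0.16 ± 0.136 (0.291), and 0.65 (0.00034) with library totals alone. In the mutant the step from 12h to 1d was -0.46 ± 0.123 (0.00674), and -0.19 (0.173) without mutant 12h replicate 1, the higher of the 12h libraries. The mutant then rose by 2.71 ± 0.125 to 3d (1.24e-11) and fell by 3.62 ± 0.13 to 5d (1.18e-12). From lowest to highest the order was mutant 5d, WT 1d, WT 3d, mutant 1d, WT 5d, mutant 12h, WT 12h and mutant 3d, a 12.3-fold range with overlap between the 12h groups alone. How many of all genes had as few overlaps was not counted.

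nit-6, nitrite reductase, was highest in the mutant at 3d, as nit-3 was, but had a different course in WT. WT libraries held 719 and 693 CPM at 12h, 1213 and 1145 at 1d, 599 and 583 at 3d, and 407 and 392 at 5d. Mutant libraries held 658 and 531 CPM at 12h, 1074 and 1040 at 1d, 3172 and 3119 at 3d, and 454 and 474 at 5d. WT was highest at 1d, the time of its lowest nit-3 level, and the mutant was highest at 3d. On the per-length scale nit-6 reached 794 ± 31.8 RPKM in the mutant at 3d, rank 65 of 9730 genes. The genotype log2 fold change at 3d was 2.41 ± 0.0891 (adjusted p = 8.9e-13). At 12h and 1d it was -0.25 ± 0.0849 (0.0662) and -0.16 ± 0.0848 (0.16), although the mutant libraries lay below the WT libraries at both times. The 12h value passed without mutant 12h replicate 1 (-0.41, adjusted p = 0.00554) and with DESeq2 (0.0219).

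At 5d the nit-6 difference was 0.21 ± 0.0852 (adjusted p = 0.0387), a call lost on leaving out any 5d library: the adjusted p was 0.0559 and 0.145 without WT 5d replicate 1 and 2, and 0.062 and 0.159 without mutant 5d replicate 1 and 2. It was also 0.0546 without mutant 3d replicate 1, 0.0538 with only the 5d groups in the fit and 0.239 with library totals alone. From 12h to 1d, nit-6 rose by 0.74 ± 0.0852 in WT (2.22e-06) and by 0.83 ± 0.0854 in the mutant (1.03e-06). From 1d to 3d it fell by 1.00 ± 0.0856 on the log2 scale in WT (1.43e-08) and rose by 1.57 ± 0.0866 in the mutant (1.06e-10). From 3d to 5d it fell by 0.56 ± 0.0853 in WT (3.98e-05) and by 2.76 ± 0.0904 in the mutant (4.27e-13). The order was WT 5d, mutant 5d, WT 3d, mutant 12h, WT 12h, mutant 1d, WT 1d and mutant 3d, a 7.87-fold range in which WT 3d and mutant 12h overlapped.

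am, the NADP-dependent glutamate dehydrogenase, was among the most abundant transcripts early and fell steeply in both strains, later in the mutant. WT libraries held 4343 and 3810 CPM at 12h, 2759 and 3012 at 1d, 528 and 447 at 3d, and 85.3 and 57.5 at 5d. Mutant libraries held 3805 and 3648 CPM at 12h, 3663 and 3274 at 1d, 1939 and 1810 at 3d, and 18.3 and 21.5 at 5d. The mutant lay above WT at 1d and 3d and below it at 12h and 5d, without overlap, as was the case for 56.7 to 82.2% of all genes at the 4 times. The difference passed at 3d, 1.94 ± 0.142 (adjusted p = 4.51e-09), and in the other direction at 5d, -1.84 ± 0.153 (3.86e-08). At 12h it was -0.13 ± 0.136 (0.586). At 1d it was 0.27 ± 0.137 (0.141), and it passed at 1d with library totals alone (0.42, adjusted p = 0.0113), with only the 1d groups in the fit (0.0169) and without WT 5d replicate 1 (0.0358) or 2 (0.0381).

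WT am fell by 0.50 ± 0.137 on the log2 scale from 12h to 1d (0.00546), by 2.57 ± 0.145 to 3d (6.53e-11) and by 2.77 ± 0.149 to 5d (2.81e-10). The first of these falls had an adjusted p of 0.0604 without WT 12h replicate 1 and 0.0567 without WT 1d replicate 1. The mutant changed by -0.10 ± 0.136 to 1d (0.586), fell by 0.89 ± 0.138 to 3d (2.23e-05) and then fell by 6.56 ± 0.178 to 5d (6.37e-14), a 94.1-fold drop. This last drop ranked 1 among the falls of all 8983 genes over that step in the mutant, and 2 among changes of either sign. The order was mutant 5d, WT 5d, WT 3d, mutant 3d, WT 1d, mutant 1d, mutant 12h and WT 12h, a 205-fold range, the widest of the 7 genes, in which mutant 1d and mutant 12h overlapped.

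en(am)-2, glutamate synthase, fell from 12h to 3d in both strains, further in WT. WT libraries held 913 and 893 CPM at 12h, 638 and 623 at 1d, 249 and 239 at 3d, and 287 and 304 at 5d. Mutant libraries held 1030 and 967 CPM at 12h, 695 and 709 at 1d, 559 and 541 at 3d, and 327 and 348 at 5d. The mutant libraries lay above the WT libraries at each time, though the 12h and 1d differences did not pass and 56.7 to 82.2% of all genes also stood apart. The difference was largest at 3d, 1.17 ± 0.0673 (adjusted p = 2.24e-10). It was 0.15 ± 0.066 at 12h (0.164) and 0.16 ± 0.0663 at 1d (0.0768), where it passed with library totals alone (0.31, adjusted p = 0.00153). At 5d it was 0.19 ± 0.0666 (0.0199), with an adjusted p of 0.115 without WT 5d replicate 1, 0.137 without mutant 5d replicate 2, 0.0786 with only the 5d groups in the fit and 0.267 with library totals alone.

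en(am)-2 fell by 0.52 ± 0.0664 (6.91e-06) from 12h to 1d in WT and by 0.51 ± 0.0663 (1.47e-05) in the mutant. From 1d to 3d it fell by 1.37 ± 0.0677 in WT (1.2e-11) and by 0.35 ± 0.0663 in the mutant (0.000158). From 3d to 5d WT rose by 0.28 ± 0.0668 (0.00249), whereas the mutant fell by 0.70 ± 0.0666 (1.2e-07). All 8 groups stood apart, in the order WT 3d, WT 5d, mutant 5d, mutant 3d, WT 1d, mutant 1d, WT 12h and mutant 12h, over a 4.09-fold range. The share of all genes with every group apart was not counted.

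Counted by step, 1 of the 7 genes rose and 6 fell in WT from 12h to 1d, where 56.8% of all genes passed (26.1% rose, 30.7% fell). From 1d to 3d in WT, 2 rose and 4 fell, against 79.0% of all genes (41.9% rose, 37.1% fell). From 3d to 5d in WT, 3 rose and 3 fell, against 54.6% (27.1% rose, 27.5% fell). In the mutant, 1 rose and 3 fell from 12h to 1d, against 40.7% of all genes (21.4% rose, 19.3% fell). From 1d to 3d, 3 rose and 3 fell, against 72.6% (35.6% rose, 37.0% fell). From 3d to 5d, 2 rose and 4 fell, against 62.9% (31.7% rose, 31.2% fell). These steps share their groups with the genotype comparisons and are not independent of them.

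Ratios between genes within a library do not depend on the scaling between libraries. The RPKM of nit-6 was 7.27 ± 0.756 times that of nit-3 in WT at 12h, 28.9 ± 1.48 times at 1d, 13 ± 0.837 times at 3d and 5.37 ± 0.049 times at 5d. In the mutant it was 6.2 ± 0.556, 15 ± 0.0323, 6.86 ± 0.509 and 12.4 ± 0.73 times. The ratio was thus higher in WT at 1d and 3d and higher in the mutant at 5d, with no overlap between libraries, while at 12h the WT libraries (6.74 and 7.81) lay above the mutant libraries (5.81 and 6.6) with a gap smaller than the spread within either group. The RPKM of am was 15.4 ± 1.18, 15.6 ± 1.24, 6.79 ± 0.603 and 0.828 ± 0.261 times that of en(am)-2 in WT at the 4 times. In the mutant it was 12.7 ± 0.192, 16.8 ± 1.58, 11.6 ± 0.29 and 0.2 ± 0.0145 times. The am transcript therefore outnumbered that of en(am)-2 per length until 3d in both strains, and lay below it at 5d in both mutant libraries and in WT replicate 2 (0.644, against 1.01 in replicate 1).

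**Figure D3:**
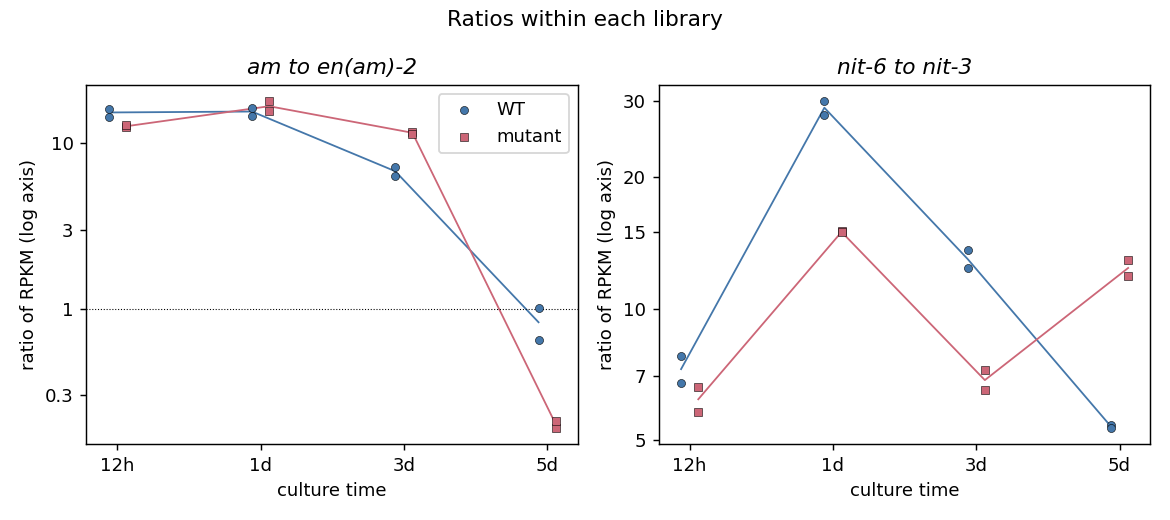
Ratio of RPKM values within each library (vertical axis, log scale) for nit-6 over nit-3 and am over en(am)-2 at the 4 times, with points for libraries and lines joining group means, WT as blue circles, the mutant as red squares and a dotted line where both genes are equal. The nit-6 to nit-3 ratio peaked at 1d in both strains (28.9 in WT, 15 in the mutant), and the am to en(am)-2 ratio fell to 0.828 in WT and 0.2 in the mutant at 5d.

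The surrounding pathway was read from a list of 60 further genes of nitrogen uptake, glutamine and glutamate metabolism, purine, urea and other nitrogen compounds, the molybdenum cofactor that nitrate reductase carries, and regulators, chosen by symbol or product name. The list includes 4 genes that matched only on part of a longer product name and belong to other routes (un-7, met-6, arg-14 and NCU09718). All 60 passed the filter. In the mutant 5 were higher and 2 lower at 12h, 11 and 7 at 1d, 35 and 7 at 3d, and 23 and 18 at 5d. The share of the list that passed was 11.7, 30, 70 and 68.3%, beside 13, 37.1, 59.5 and 61.6% of all genes tested at the same times. Whether the list differs from all genes in these shares was not tested. Their median log2 fold changes were -0.09, -0.03, 0.40 and 0.03. With library totals alone these counts were 5 and 1, 19 and 4, 26 and 15, and 16 and 21. Leaving out single libraries also moved them: at 12h the higher count was 2 without WT 12h replicate 1 or mutant 12h replicate 2, and the lower count ran from 0 (without either WT 12h library) to 5 (without either mutant 1d library). At 1d the higher count was 7 without either WT 1d library and 6 without mutant 1d replicate 1, and at 3d the lower count was 4 without mutant 3d replicate 1.

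Of the 7 uptake genes, none passed at 12h or 1d, where 13 and 37.1% of all genes did. In the mutant, 5 were higher and 1 lower at 3d, and 1 was higher and 3 lower at 5d. That is 85.7% at 3d and 57.1% at 5d, beside 59.5 and 61.6% of all genes. nit-10, the nitrate transporter, held 54 and 51.6 CPM in WT at 3d and 608 and 613 CPM in the mutant, and 83.8 and 98.4 against 49.2 and 40.5 CPM at 5d. The groups did not overlap at either time, and the direction turned between them: the log2 fold change was 3.53 ± 0.0981 at 3d (adjusted p = 3.71e-14) and -1.02 ± 0.0947 at 5d (1.26e-07). At 12h and 1d it was -0.02 and 0.10 (0.893 and 0.466). tam-1, an ammonium transporter of the MEP type, held 194 and 197 CPM in WT at 3d and 1021 and 943 CPM in the mutant, a log2 fold change of 2.33 ± 0.105 (1.08e-11). At 5d it was 0.53 ± 0.102 (0.000295). The other ammonium transporters were higher in the mutant at 3d by smaller amounts: 0.64 ± 0.087 for NCU01065 (9.4e-06), 0.81 ± 0.203 for tam-2 (0.00252) and 0.47 ± 0.171 for NCU06613 (0.0252, and 0.013 to 0.213 over 22 alternatives, of which 19 kept the call). At 5d NCU01065 was lower, -1.07 ± 0.0895 (4.26e-08). The formate/nitrite transporter gene NCU00758 was lower at 3d (-0.57 ± 0.128, adjusted p = 0.0011), and the urea transporter gene NCU01977 was lower at 5d (-0.32 ± 0.0753, 0.00145).

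**Figure D4:**
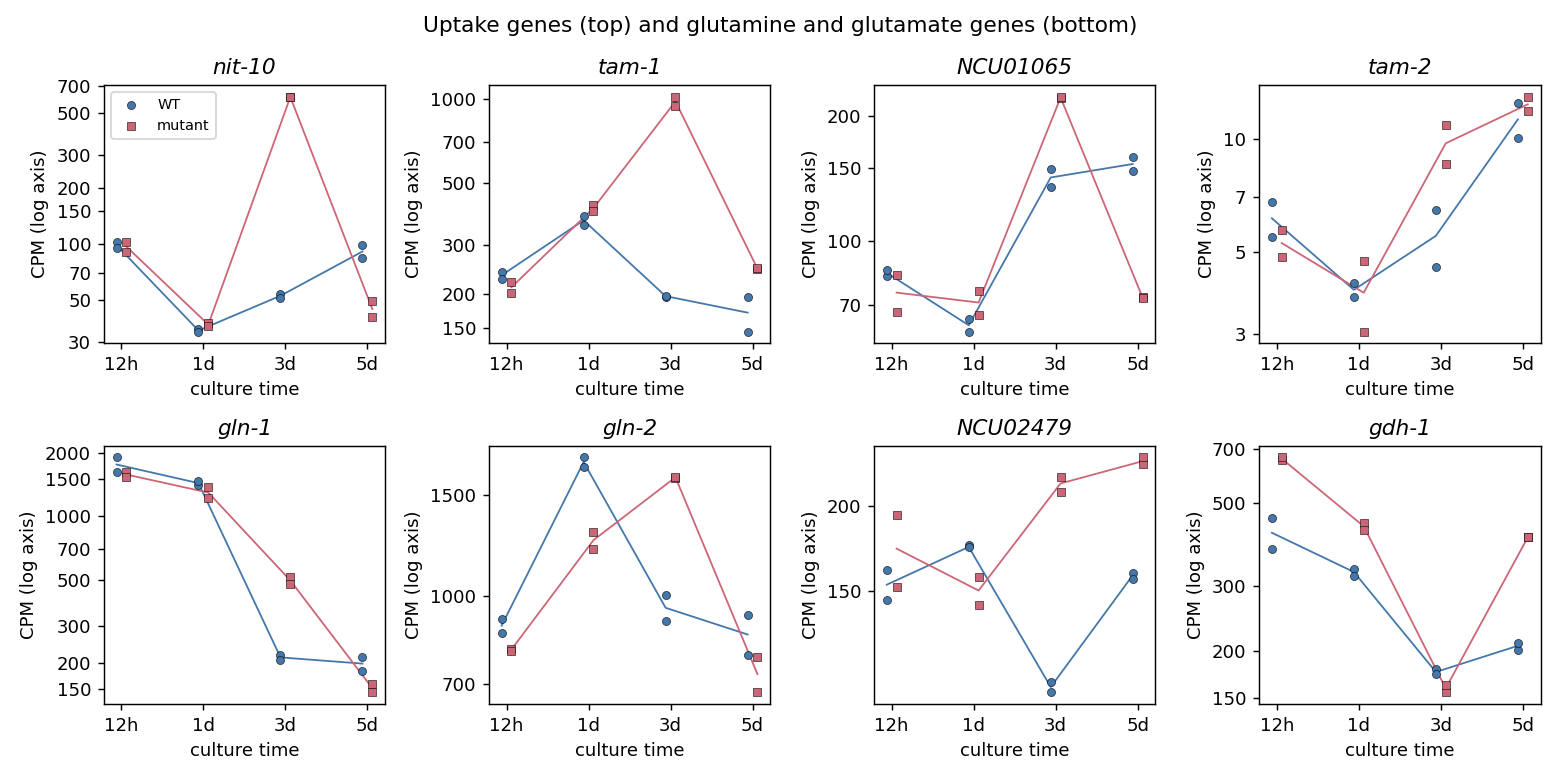
CPM (log axis, a separate scale per gene) of 4 uptake genes (top row) and 4 genes of glutamine and glutamate metabolism (bottom row) at the 4 times, with points for libraries and lines joining group means, WT as blue circles and the mutant as red squares. nit-10 (611 CPM) and tam-1 (982 CPM) peaked in the mutant at 3d, and gdh-1 was higher in the mutant at 12h, 1d and 5d.

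The 3 genes named glutamine synthetase, which makes glutamine from glutamate and ammonium, were all higher in the mutant at 3d, as were 29.4% of all genes. Of the 10 glutamine and glutamate genes of the list, 5 were higher and 0 lower at 3d. That is 50%, beside 59.5% of all genes that passed. gln-1 held 219 and 207 CPM in WT at 3d and 514 and 476 CPM in the mutant, against 1765 ± 201 and 1581 ± 64.1 CPM at 12h. Its log2 fold change was 1.22 ± 0.0971 at 3d (adjusted p = 1.43e-08) and -0.39 ± 0.0969 at 5d (0.00261), the same pair of directions as am and nit-3. gln-2 was lower in the mutant at 1d (-0.45 ± 0.0893, 0.00106), higher at 3d (0.76 ± 0.0895, 1.79e-06) and lower at 5d (-0.23 ± 0.0893, 0.035, and 0.00165 to 0.348 over 22 alternatives, of which 19 kept the call). NCU02479 was higher at 3d (1.00 ± 0.092, 8.88e-08) and at 5d (0.56 ± 0.0909, 5.86e-05). gdh-1, the NAD-dependent glutamate dehydrogenase, which breaks glutamate down, ran a different course from am. It held 378 and 457 CPM in WT at 12h against 655 and 665 CPM in the mutant, and 202 and 211 against 406 and 405 CPM at 5d. Its log2 fold change was 0.66 ± 0.0777 at 12h (3.16e-05), 0.41 ± 0.0782 at 1d (0.000857) and 0.97 ± 0.0787 at 5d (2.7e-08), while the 3d value was -0.15 ± 0.0788 (0.102).

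Likeness between genes was described by Pearson's r of log2 CPM over the 16 libraries, which share 8 groups, so that r reflects the course over groups and carries no test. Of all other genes tested, nit-10 was most like nit-3 (r = 0.949), followed by the purine permease gene NCU06918 (0.929). nit-6 was most like NCU03756, an aromatic amino acid aminotransferase gene (0.968), and tam-1 (0.962). am was most like ant-1 (0.988) and NCU06386 (0.987), and en(am)-2 was most like NCU09724 (0.990) and nuo12.3 (0.987). The genes most like nit-2 were NCU04325 (0.945) and NCU03435 (0.943), those most like nit-4 were NCU00628 (0.960) and NCU06821 (0.947), and those most like nmr were NCU03107 (0.971) and NCU03192 (0.966). Among the 7 themselves, the highest r were 0.83 between nit-4 and nmr, 0.80 between nit-2 and en(am)-2, 0.79 between am and en(am)-2, 0.71 between nit-3 and nit-6, and 0.68 between nit-2 and am. The lowest were -0.85 between nmr and am and -0.73 between nit-4 and am. nit-2 had r of 0.00 with nit-3 and 0.10 with nit-6, nit-4 had 0.09 and -0.28, and nmr had -0.00 and -0.50.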

How the data were processed

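RNA was measured in 16 libraries, 2 for each of 8 groups of strain and time, with groups and replicate numbers taken from the labels. The authors deposited read counts per gene, and, per the file headers, RPKM values, which divide counts by gene length and library total. Per the submitters' processing notes, TopHat2 (2.0.8b) and HTSeq (0.5.4p3) were used. The genome build and the strand setting are not given in the sources used here, so overlapping and antisense genes are uncertain. Of 146267 RPKM values above 0, 100.0% equalled the value computed from the count within a relative tolerance of 0.001. The computation used a single length per gene, itself derived from the same counts and RPKM values. The gene lengths behind the RPKM values were therefore not checked.

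The 6 entries of the deposited counts that name no gene were left out. In WT 3d replicate 2 reads without a gene made up 6.86% of reads, and in mutant 5d replicate 1, 4.43%. For the other libraries no such reads were recorded. Counts were tested with edgeR (4.0.16) in R (4.3.3), after filterByExpr over the 8 groups removed 747 of 9730 genes and TMM scaling gave factors from 0.840 to 1.25. The quasi-likelihood model had 1 mean per group over all 16 libraries and 8 residual degrees of freedom. Contrasts compared the mutant with WT at each time, neighbouring times within a strain, and the genotype difference between times. The SE came from dividing the size of the log2 fold change by the root of the F statistic. p-values were adjusted over all 8983 genes by Benjamini and Hochberg, with 0.05 as threshold. The fit was also run on simulated data in which 200 genes differed between the 3d groups and all others had equal means. Far more genes differ in the real data, so the simulation could not probe the scaling between libraries. Tables and figures used Python (3.11.15), pandas (2.3.3), NumPy (2.4.6) and matplotlib (3.10.9).

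The 2 libraries of a group were never identical within sampling noise: chi-square per degree of freedom ran from 3.91 (WT 1d) to 22.1 (WT 5d). The labels do not say whether same-numbered libraries were handled together. The correlation of deviations from group means between same-numbered libraries ran from -0.145 to 0.0891 over 28 pairs of groups. It thus showed no strong shift shared by replicate number over all genes, but cannot show how libraries were prepared. All 7 genes were described. Of the pathway list, uptake, glutamine synthetase and NAD glutamate dehydrogenase genes were named, with the 2 largest changes in each direction per genotype comparison. The 2 genes of highest correlation with each member were named too. Members, lists and rules were chosen with earlier results of these data known. Symbols came from a reference table (assembly NC12), in which 9729 gene identifiers were found. Alternatives were scaling by library totals or by DESeq2 size factors, DESeq2 (1.42.0), no filter, only the groups compared, a replicate block, and leaving out each library. Gene and promoter sequences were not analysed here.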

Additional observations from a re-analysis of the deposited data

Results flagged for a closer look

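The genotype difference of each of the 7 genes was not the same at the 4 times, by edgeR's F test on the differences between times, which 77.5% of all genes tested also passed. The adjusted p was 3.75e-11 for nit-3, whose difference was positive at 3d and negative at 5d, and 4.78e-11 for nit-6, whose difference was large at 3d alone. For am it was 2.09e-09, with a positive difference at 3d and a negative one at 5d, and for en(am)-2 it was 1.21e-07, with the largest difference at 3d. Among the regulators, whose differences were largest at 1d, it was 0.000225 for nit-2, 0.000606 for nit-4 and 0.015 for nmr. Leaving out WT 1d replicate 2 gave 0.0574 for nmr, and leaving out mutant 1d replicate 1 gave 0.067.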

How the results depend on the processing

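Over 22 alternatives, 1687 values of the 7 genes were recomputed: 1607 kept their direction and side of the threshold, 47 lost a call, 12 gained one and 21 changed sign. A value that changed sign was counted only as such, whether or not its call also changed. At 3d the differences of nit-3, nit-6, am and en(am)-2 kept call and direction in all 22, with log2 fold changes of 3.11 to 3.42, 2.19 to 2.45, 1.72 to 2.07 and 0.95 to 1.21. The number of the 7 genes called ran from 0 to 2 at 12h when single libraries were left out, and from 3 to 6 at 5d, where it was 3 with library totals alone (6 as reported).

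Changes of sign lay at small differences, though some of these passed the threshold. With library totals alone the changes of sign were nit-3 at 12h (0.03), nit-6 at 1d (0.00), nit-2 and nmr at 3d (-0.21 and -0.04), nmr at 5d (-0.05), and nit-2 in WT from 1d to 3d (0.26). The last went from a passing fall (edgeR, adjusted p = 0.00838) to a passing rise (0.00297). Under the same scaling, nit-2 at 3d passed as lower in the mutant (0.0165), and nmr at 3d lost its call (0.692). nit-4 at 3d was 0.02 with DESeq2 size factors and with DESeq2, and nit-3 at 12h was 0.01 with only the groups compared. Leaving out single libraries gave ranges of -0.28 to 0.21 (nit-3, 12h), -0.20 to 0.03 (nit-4, 12h), -0.04 to 0.12 (nit-2, 3d), -0.17 to 0.16 (nit-4, 3d), -0.01 to 0.12 (nmr, 5d), -0.06 to 0.27 (nit-4, WT 3d to 5d) and -0.08 to 0.08 (nit-2, mutant 3d to 5d). The cause was not tested, except that library totals moved the median of all genes by 0.16 at 1d, -0.23 at 3d, -0.10 at 5d and 0.49 in WT from 1d to 3d.

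Among all genes, that scaling changed the numbers called higher and lower from 587 and 585 to 665 and 423 at 12h, from 1718 and 1619 to 3037 and 755 at 1d, from 2645 and 2697 to 1648 and 4249 at 3d, and from 2751 and 2779 to 2046 and 3315 at 5d. In time it gave 5467 and 2010 in WT from 1d to 3d (3765 and 3334 as reported), and, in the mutant, 2653 and 1117 from 12h to 1d (1919 and 1734) and 3857 and 2064 from 3d to 5d (2848 and 2805). The genes called at 12h numbered 1172, and 462 without WT 12h replicate 1 or 544 without mutant 12h replicate 2. At 1d they numbered 3337, and 2108 without WT 1d replicate 1 or 2196 without mutant 1d replicate 1.

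With a replicate block, though no label says that the numbers pair libraries, 76 of 77 values kept direction and call. The exception was nmr at 3d (0.19, adjusted p = 0.0561). A library left alone in its group is assumed to vary like the others.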

Other observations

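Among single genes of purine, urea and arginine breakdown, directions were mixed. NCU07853, named uricase, an enzyme of purine breakdown, held 101 and 93.7 CPM in WT at 5d and 1849 and 2063 CPM in the mutant, a log2 fold change of 4.33 ± 0.554 (edgeR, adjusted p = 5.27e-06). At 1d it was lower in the mutant, -2.10 ± 0.509 (0.00461), but the mutant libraries there differed widely, at 25.7 and 219 CPM against 550 and 502 CPM in WT, and the alternatives ranged from -4.36 to -1.27, with an adjusted p of up to 0.0723. aln-1, allantoinase, the next kind of enzyme in that route, was lower at 3d, with 203 and 166 CPM in WT against 90.2 and 82 CPM in the mutant (-1.10 ± 0.113, 3.28e-07). The allantoicase gene alc-1, named after its values were seen, lay the other way at 3d, with 73.8 and 70.1 CPM in WT against 182 and 173 CPM in the mutant. NCU02084, arginase, which releases urea from arginine, was lower at 1d (-1.54 ± 0.173, 7.87e-06) and at 3d, with 162 and 159 CPM in WT against 51.3 and 47.6 CPM in the mutant (-1.70 ± 0.173, 3.11e-07). The other arginase gene of the list, aga-1, named after its values were seen, went the other way at 3d, with 30.2 and 26.3 CPM in WT against 95.1 and 88.3 CPM in the mutant (1.70 ± 0.101, 3.34e-10). The urease accessory genes also differed in direction. ure-3 was lower at 12h (-0.24 ± 0.0707, adjusted p = 0.0373, a call kept in 12 of 22 alternatives) and, at times named after its values were seen, higher at 3d (0.92 ± 0.0719, 1.05e-08) and 5d (0.55 ± 0.0728, 7.61e-06). NCU01185, likewise named afterwards, passed at none of the 4 times. NCU01246 was lower at 5d, with 6.78 and 7.89 CPM in WT against 1.55 and 2.81 CPM in the mutant (-1.72 ± 0.212, 3.52e-06). Of the 9 purine and urea genes, 4 were higher and 1 lower at 3d, and 4 higher and 2 lower at 5d, or 55.6 and 66.7%, close to the 59.5 and 61.6% of all genes that passed.

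Of the 6 genes of the molybdenum cofactor, 0 passed at 12h, 2 were higher and 0 lower at 1d, 3 higher and 1 lower at 3d, and 3 higher and 0 lower at 5d. The shares of 33.3, 66.7 and 50% at 1d, 3d and 5d stood beside 37.1, 59.5 and 61.6% of all genes. NCU02777, a cofactor sulfurase, was the most changed at 5d (26.3 and 22.7 CPM in WT, 87.7 and 81.1 in the mutant, 1.78 ± 0.277, adjusted p = 3.99e-05), and NCU00498 at 1d (0.64 ± 0.105, 0.000278). At 12h the proline oxidase gene NCU02936 was higher in the mutant (0.55 ± 0.081, 0.000306) and npd-1, a nitropropane dioxygenase gene, lower (-0.31 ± 0.075, 0.012, and up to 0.0885 over the alternatives). The copper amine oxidase gene NCU09406 was higher at 1d (0.77 ± 0.272, 0.0363, and up to 0.307 over the alternatives). Among the other regulators, cpc-1, the activator of amino acid synthesis genes, was higher at 1d (0.60 ± 0.0955, 0.000189) and 3d (0.57 ± 0.0953, 8.24e-05) and lower at 5d (-0.75 ± 0.0957, 5.32e-06), and pco-1, the activator of purine breakdown genes, was higher at 1d by 0.40 (0.00855), at 3d by 0.39 (0.00288) and at 5d by 0.37 (0.00339), with an adjusted p of up to 0.143, 0.183 and 0.0383 over the alternatives.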
